A study of Mus musculus with 4 samples.

Results

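Integrins and laminins are the receptors and the matrix proteins through which cells hold on to basement membranes and to each other. The transcripts of 36 genes of these families were followed among the 55421 gene identifiers of the count tables. They were found by matching listed symbols to Ensembl identifiers on build GRCm38, and all 36 had an identifier. They comprise 26 integrin chains and 10 laminin chains. The integrin chains were grouped by role into 9 leukocyte chains, 4 collagen-binding alpha chains, 8 chains of receptors for the RGD peptide motif, 4 laminin-binding chains, and the beta1 chain that many of these receptors share. Itga9 was placed beside its relative Itga4.

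An integrin is a heterodimer of an alpha and a beta chain that spans the plasma membrane, binds matrix or counter-receptors outside and links to actin inside. The chains that a cell makes decide which ligands it can bind. Beta2 and beta7 receptors serve leukocyte traffic. Receptors with alphav bind vitronectin and fibronectin, those with alpha5 bind fibronectin, and alpha3 and alpha6 receptors bind laminin. A laminin is a trimer of an alpha, a beta and a gamma chain that polymerises into the sheet of a basement membrane. In mouse islets, capillary basement membranes supply laminin that endocrine cells bind through beta1 integrins.

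The samples were 4 RNA libraries from wild-type C57BL/6 mice, 2 on normal chow (NCD) and 2 on a high-fat diet (HFD). The labels call the material islet macrophage and describe RNA taken from frozen islets. The sources used here give no sex, age, length of feeding or number of animals per library. No label ties the 2 libraries of a diet to different animals, so the p-values reflect spread between libraries that may be technical only.

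The libraries held 56740720 to 64490097 counts. Levels are CPM, counts relative to TMM-scaled library size, and means carry the SD over n = 2 libraries per diet. Transcripts of islet endocrine cells stood beside those of macrophages. Over the 4 libraries, 7 beta cell markers summed to 13476 to 17761 CPM and 9 macrophage markers to 586 to 665 CPM. Most of the beta cell sum was Ins2 and Iapp, so these sums do not give the share of RNA from each cell type. All 9 macrophage markers had enough counts to be tested. In such mixed RNA, fewer cells of a type and less RNA per cell cannot be told apart. Small counts stood more often at multiples of 4 than beside them, by a factor of 1.64 to 1.74, so the precision of genes with few counts may be lower than the totals give.

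Integrin and laminin transcripts were mostly higher in HFD. Of the 26 integrin chains 25 could be tested, and 15 rose, 2 fell and 8 did not pass (edgeR quasi-likelihood test, Benjamini-Hochberg adjusted p under 0.05 over all genes). Of the 10 laminin chains, all tested, 8 rose and 2 did not pass. Over all 21563 genes tested, 32.4% were called, 17.9% as higher and 14.5% as lower. The median log2 change was 0.82 over the tested integrin chains and 0.70 over the laminin chains, beside 0.00257 over all genes tested. The integrin chains summed to 1402 and 1401 CPM on NCD and to 1869.9 and 1871 CPM on HFD, and the laminin chains to 543 and 534 CPM on NCD and to 811 and 882 CPM on HFD. Both HFD libraries lay above both NCD libraries for 30 of the 35 tested members and below them for Itgax and Itgb5, where 34.5% and 33.2% of all genes tested did so. Those with a call and a change of at least 2-fold made up 10% as higher and 1.33% as lower. The shares of tested genes called higher and lower were 10.6% and 8.26% without the count filter, 24.6% and 20.7% at a mean of at least 5 CPM, and 15.1% and 12% with a replicate block. They were 14% and 9.21% without NCD replicate 1, 13.9% and 9.41% without NCD replicate 2, 12.3% and 8.88% without HFD replicate 1 and 11.8% and 9.46% without HFD replicate 2, while DESeq2 called 23% as higher and 20% as lower. As higher, limma-voom called 18.4% and edgeR on counts divided by 4 called 22.5%.

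**Figure D1:**
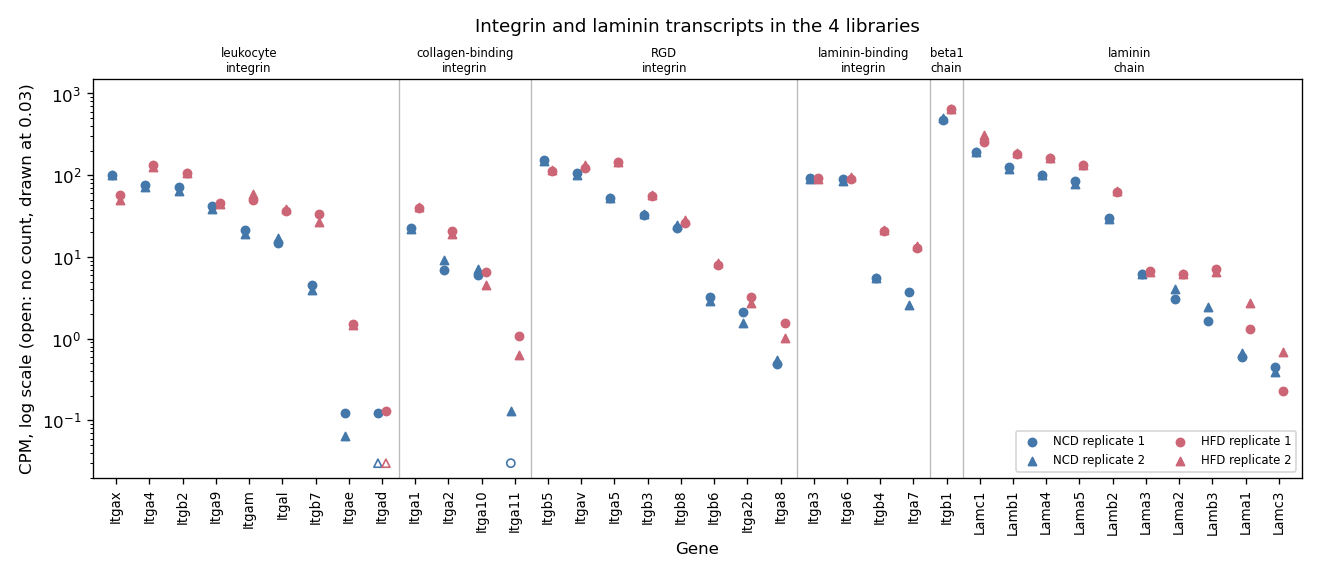
Level of each of the 36 members in each library, in CPM on a log scale, grouped by role and ordered by NCD level. Blue is NCD and red HFD, circles are replicate 1 and triangles replicate 2. Open symbols at the foot of the axis mark libraries without a count. The red symbols lie below the blue ones for Itgax and Itgb5 and above them for most other members.

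Compared per kilobase of exon, Itgb1 was the most abundant member in both diets, with 119 CPM per kilobase in NCD and 158 in HFD. It was followed in NCD by Itgb5 at 42.8, Lamc1 at 23.3, Itgb2 at 22.3 and Itgax at 21.0 CPM per kilobase. In HFD the next were Itgb2 at 34.6, Lamc1 at 34.25, Itgb5 at 32.2 and Itga5 at 29.8 CPM per kilobase, and Itgax stood 11th at 11.1. The HFD libraries of Lamc1, at 30.6 and 37.95 CPM per kilobase, overlapped those of Itgb2 and Itgb5, so the order of these 3 chains is not beyond their spread. On NCD the libraries of Lamc1, at 23.1 and 23.6 CPM per kilobase, overlapped those of Itgb2, at 23.5 and 21.2, and their order is not beyond the spread either. All these levels use the annotated exon length. By that length Itgam stood at 4.01 CPM per kilobase in NCD and 10.7 in HFD, but most of its exon bases also belong to another gene. The order in HFD, including the 11th place of Itgax, could change with the length given to Itgam.

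Of 9 leukocyte chains 6 rose (Itgal, Itgam, Itgae, Itga4, Itgb2 and Itgb7), Itgax fell, Itga9 did not pass and Itgad was not tested. Itgam encodes alphaM, the chain of the complement receptor CR3 on myeloid cells. Its level was 21.1 and 19.2 CPM on NCD and 49.3 and 58.5 CPM on HFD, a log2 change of 1.42 ± 0.11 (SE; edgeR adjusted p = 0.000657). Itgax encodes alphaX, known as CD11c, a chain typical of dendritic cells and of many tissue macrophages. Its level was 100.9 and 100.5 CPM on NCD and 57.4 and 49.4 CPM on HFD, a log2 change of -0.92 ± 0.09 (edgeR adjusted p = 0.00115). The diets did not overlap for either gene. The ratio of Itgam to Itgax within a library was 0.209 and 0.191 in NCD and 0.859 and 1.19 in HFD.

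Itgam (chr7:128062640-128118491, plus strand) and Itgax (chr7:128129547-128150657, plus strand) are neighbours on GRCm38, followed by Itgad (chr7:128154376-128223816, plus strand). The 250 bases before the RefSeq start of each are shown because these adjacent genes moved in opposite directions, together with those of Itgb7, the leukocyte chain with the largest change among those above 1 CPM on NCD, and of Itgb5, the other member that fell. The strand printed is that of the gene, 5′ to 3′. Capitals mark GAGGAA, a core that the myeloid factor PU.1 can bind, and GGGCGG, the GC box, on either strand (TTCCTC and CCGCCC on the other). The windows are chr7:128062390-128062639 (plus) for Itgam, chr7:128129300-128129549 (plus) for Itgax, chr15:102231936-102232185 (minus) for Itgb7 and chr16:33829415-33829664 (plus) for Itgb5, from RefSeq on GRCm38.p6.
Itgam: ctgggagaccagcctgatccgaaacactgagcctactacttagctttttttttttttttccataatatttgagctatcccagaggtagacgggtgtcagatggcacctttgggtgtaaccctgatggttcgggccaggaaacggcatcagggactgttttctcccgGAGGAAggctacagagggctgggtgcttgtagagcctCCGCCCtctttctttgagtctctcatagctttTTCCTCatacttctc
Itgax: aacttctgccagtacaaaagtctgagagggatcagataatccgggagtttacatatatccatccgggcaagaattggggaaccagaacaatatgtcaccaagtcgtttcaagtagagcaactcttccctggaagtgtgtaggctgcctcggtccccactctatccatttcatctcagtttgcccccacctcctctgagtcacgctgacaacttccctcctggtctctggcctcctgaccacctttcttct
Itgb7: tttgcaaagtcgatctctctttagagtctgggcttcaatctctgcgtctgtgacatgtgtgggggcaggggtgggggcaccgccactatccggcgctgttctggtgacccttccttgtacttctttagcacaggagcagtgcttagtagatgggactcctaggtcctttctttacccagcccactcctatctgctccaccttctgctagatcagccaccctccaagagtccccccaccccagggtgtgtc
Itgb5: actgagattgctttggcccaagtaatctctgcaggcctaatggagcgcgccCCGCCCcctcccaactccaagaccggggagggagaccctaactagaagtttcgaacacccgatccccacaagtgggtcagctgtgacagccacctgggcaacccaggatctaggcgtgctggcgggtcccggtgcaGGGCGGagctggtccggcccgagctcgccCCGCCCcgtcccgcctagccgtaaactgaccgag

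The Itgam window held GAGGAA 2 times, 84 and 15 bases before the start, and GGGCGG once, 47 bases before it. The Itgax and Itgb7 windows held neither, and the Itgb5 window held GGGCGG 3 times. Of 27025 mouse promoter windows of this length, 23.1% held GAGGAA and 32.9% held GGGCGG on either strand. A promoter entry was at hand for 23 of the 36 members, and with 1 window per gene, its first entry, 11 held GAGGAA and 8 held GGGCGG. The background shares also count 1 window per gene. Itgb6 and Itga3 held GAGGAA only in a second window, from another start. The marked motifs do not overlap one another, and a match describes letters only.

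The level of Itgam relative to other genes is uncertain. Of its 5024 exon bases 68.7% also belong to the readthrough gene Gm49368 on the same strand, to which the tables give 5, 0, 0 and 0 counts. The sources used here do not say how reads in exons of both genes were assigned. Among the alpha chains that pair with beta2, per kilobase of annotated exon, Itgax made up 76.4% ± 0.0137 in NCD and 40.4% ± 4.77 in HFD, Itgam 14.6% ± 0.923 and 39.0% ± 4.25, and Itgal 8.90% ± 0.981 and 20.6% ± 0.595. When Itgam was given only its 1574 exon bases outside Gm49368, Itgam made up 35.3% ± 1.69 in NCD and 66.98% ± 3.95 in HFD and Itgax 57.9% ± 0.898 and 21.9% ± 3.67. The share of Itgax was lower in HFD by either length, which its fall beside the rises of Itgam and Itgal fixes at any length. It is not a separate result.

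Itgb2 encodes beta2, the partner of alphaL, alphaM, alphaX and alphaD. It rose from 71.6 and 64.8 CPM on NCD to 105 and 106 CPM on HFD, 1.55-fold. Itgal, encoding the alphaL chain of LFA-1, which binds ICAM-1, rose from 14.8 and 17.3 CPM to 36.1 and 38.3 CPM, 2.32-fold. Itgad, the alphaD chain, had 8, 0, 8 and 0 counts over NCD and HFD replicates 1 and 2. It did not pass the count filter, and no change could be given. Of the 50-base runs in Itgad transcripts 13.5% also stand in other genes, and 8.02% of those in Itgax stand in Itgad.

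The beta7 chain and the alpha chains that pair with it, Itgae and Itga4, were called higher. Itgb7, encoding the beta7 chain, stood at 4.54 and 3.96 CPM on NCD and at 33.3 and 27.0 CPM on HFD, a log2 change of 2.83 ± 0.16 (edgeR adjusted p = 0.000239). The HFD libraries were each several times above both NCD libraries. Itgae, the alphaE chain that pairs with beta7 and binds E-cadherin on epithelium, had 8 and 4 counts on NCD and 94 and 83 counts on HFD. Taken in steps of 4 counts, that is a ratio of 15.7 with an exact 95% interval of 5.02 to 78.9, which covers counting error only. Itgae entered the test through its HFD counts alone. Itga4, the alpha4 chain that joins beta1 to bind VCAM-1 or beta7 to bind MAdCAM-1, rose from 75.2 and 71.3 CPM to 133 and 126 CPM, 1.77-fold. Itga9, a relative of alpha4 that is not restricted to leukocytes, stood at 42.1 and 38.9 CPM on NCD and 46.3 and 44.7 CPM on HFD (edgeR adjusted p = 0.150).

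Markers of several leukocytes moved beside these chains. All 7 B cell and plasma cell markers were higher in HFD, and their sum went from 69.1 to 71.1 CPM in the NCD libraries to 439 to 458 CPM in the HFD libraries. Of 8 T cell and NK cell markers 6 were tested and higher (8.54 to 8.71 CPM on NCD, 44.1 to 50.8 CPM on HFD). Of these, Cd3d (24 and 9 counts on NCD) and Cd8a (14 and 9) passed the count filter only through their HFD counts. The markers of that list left untested were the NK genes Ncr1 (4 and 13 counts on HFD) and Klrb1c (9 and 21), both without a count on NCD. Of 6 monocyte markers 4 were higher (15.8 to 16.1 and 98.6 to 103 CPM), and of 6 dendritic cell markers 3 were higher (17.5 to 18.4 and 116 to 136 CPM). Most of the monocyte sum was Vcan, at 8.82 and 9.53 CPM on NCD and 64.8 and 69.2 CPM on HFD. Most of the dendritic cell sum on HFD was Ccr7, at 102.8 and 81.6 CPM, beside 8.14 and 7.30 CPM on NCD. Ly6c2 and Clec9a did not pass, and Chil3, Xcr1 and Cd209a had too few counts to be tested. Of 9 macrophage markers 2 were higher and 4 lower, and their sum was 642 to 665 CPM on NCD and 586 to 595 CPM on HFD. The neutrophil markers S100a8, Ly6g, Elane and Mpo had no count in any library, and S100a9 had 3 counts in 1 HFD library. The part of these cells in the changes of the leukocyte chains was not tested.

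**Figure D2:**
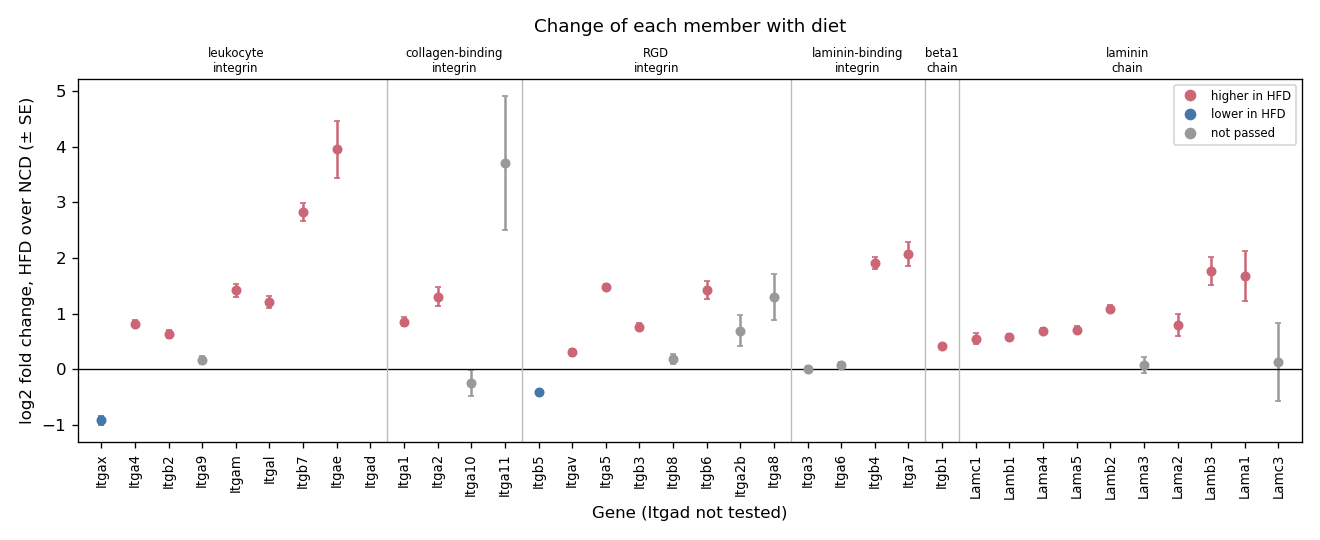
The log2 fold change of HFD over NCD for each tested member with its standard error from the edgeR fit, grouped by role as in the plot of levels. Red points rose, blue points fell and grey points did not pass the test. Itgae, Itgb7 and Itga7 show rises above 2 on the log2 scale, Itga3 and Itga6 lie near 0, and the wide bars of Itga11, Itgae, Itga8, Lama1 and Lamc3 belong to genes with few counts.

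Among the RGD receptors, the fibronectin receptor chain rose and Itgb5 fell. Of 8 chains 4 rose, 1 fell and 3 did not pass. Itga5 (chr15:103344286-103366763, minus strand) encodes alpha5, which forms the main fibronectin receptor with beta1. It rose from 53.2 and 52.3 CPM on NCD to 147 and 147 CPM on HFD, a log2 change of 1.48 ± 0.05 (edgeR adjusted p = 6.70e-05). The libraries of a diet differed by less than 1 CPM. Itgav, encoding the alphav chain common to several receptors for vitronectin, fibronectin and latent TGF-beta, stood at 107 and 100.2 CPM on NCD and 123 and 133 CPM on HFD, a log2 change of 0.30 ± 0.07 (edgeR adjusted p = 0.0191). That call was lost when replicate 2 of NCD or of HFD was left out (adjusted p by edgeR = 0.0819 and 0.0890).

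The beta partners of alphav moved in different directions. Itgb5 (chr16:33829665-33949338, plus strand), encoding the vitronectin-binding beta5 chain, fell from 154 and 151 CPM on NCD to 112 and 116 CPM on HFD, a log2 change of -0.41 ± 0.05 (edgeR adjusted p = 0.00270). Of its 50-base runs 7.25% also stand in Gm38317, which had 146 and 142 counts on NCD and 48 and 30 in HFD. Itgb3, encoding the beta3 chain that macrophages, endothelium and platelets use, rose from 32.4 and 33.4 CPM to 55.2 and 56.7 CPM, a log2 change of 0.77 ± 0.07. Itgb6, encoding the epithelial beta6 chain that activates latent TGF-beta, rose from 3.19 and 2.91 CPM to 7.86 and 8.53 CPM, a log2 change of 1.42 ± 0.17. Itgb8, whose product also activates latent TGF-beta, stood at 23.6 ± 1.04 CPM on NCD and 26.9 ± 1.54 CPM on HFD (edgeR adjusted p = 0.183). Per kilobase and leaving Itgb1 aside, Itgb5 made up 84.0% ± 0.480 of the alphav partners in NCD and 71.1% ± 0.0852 in HFD, and Itgb3 10.9% ± 0.314 and 20.97% ± 0.165.

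The remaining RGD chains were scarce. Itga2b, the alphaIIb chain of platelets, stood at 2.12 and 1.58 CPM on NCD and 3.28 and 2.70 CPM on HFD (edgeR adjusted p = 0.118), and Itga8, a nephronectin receptor chain of mesenchymal cells, at 0.496 and 0.547 CPM and 1.55 and 1.02 CPM (edgeR adjusted p = 0.0616). The diets did not overlap for either gene, which also held for 67.7% of all genes tested. The platelet and megakaryocyte markers other than Itga2b summed to 4.79 to 4.95 CPM on NCD and 25.6 to 26.7 CPM on HFD. Of these 5 markers 2, Pf4 and Ppbp, were called higher. Ppbp, with 9 and 14 counts on NCD and 70 and 89 on HFD, passed the count filter only through its HFD counts. Most of the sum was Pf4, at 3.50 and 4.00 CPM on NCD and 22.4 and 24.2 CPM on HFD. Gp9 and Gp6 had too few counts to be tested, and the diets overlapped for Gp1ba (edgeR adjusted p = 0.586). The part of platelets in the level of Itga2b was not tested.

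Of the collagen-binding chains 2 of 4 rose. Itga1, whose alpha1 product binds collagen IV of basement membranes, rose from 22.6 and 22.1 CPM to 39.8 and 41.2 CPM, 1.81-fold. Itga2, whose alpha2 product binds fibrillar collagens and is common on epithelium and platelets, rose from 6.84 and 9.25 CPM to 20.8 and 19.0 CPM, 2.47-fold. For both genes the HFD libraries lay above the NCD libraries. Itga11, an alpha chain of fibroblasts, had 0 and 8 counts on NCD and 67 and 36 counts on HFD, a ratio in steps of 4 of 13.9 with an exact 95% interval of 3.48 to 121 for counting error only, and did not pass (edgeR adjusted p = 0.0683). It entered the test through its HFD counts alone, and its fitted log2 change went from 3.71 to 8.71 without NCD replicate 2, which leaves no NCD count. Itga10, a chain best known from cartilage, stood at 6.08 and 7.03 CPM on NCD and 6.57 and 4.48 CPM on HFD (edgeR adjusted p = 0.486). Of its exon bases 33.5% also belong to Gm42957 on the same strand, which had 42 and 32 counts on NCD and 132 and 166 counts on HFD, so its level is uncertain.

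Of the 4 laminin-binding chains Itga7 and Itgb4 rose, while the more abundant Itga3 and Itga6 did not pass the test. Itga3, encoding the alpha3 chain of epithelial laminin receptors, stood at 92.1 and 88.7 CPM on NCD and 91.3 and 89.6 CPM on HFD, a log2 change of 0.000578 ± 0.0549 (edgeR adjusted p = 0.995). Itga6, encoding the alpha6 chain that joins beta1 or beta4, stood at 89.0 and 85.4 CPM on NCD and 90.3 and 93.9 CPM on HFD, a log2 change of 0.08 ± 0.06 (edgeR adjusted p = 0.358). The diets overlapped for Itga3, while the HFD libraries of Itga6 lay just above those of NCD.

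Itgb4, the beta4 chain of hemidesmosomes, rose from 5.60 and 5.60 CPM on NCD to 20.8 and 21.3 CPM on HFD, a log2 change of 1.91 ± 0.11 (edgeR adjusted p = 0.000286). Itga7, an alpha chain known from muscle and from smooth muscle of vessels, rose from 3.71 and 2.59 CPM to 12.8 and 13.7 CPM, a log2 change of 2.07 ± 0.21 (edgeR adjusted p = 0.00151). In the same libraries 4 of 7 ductal markers were higher and 1 lower (sums of 1295 to 1348 CPM on NCD, 2416 to 2685 CPM on HFD). Most of the rise of that sum was Spp1, also listed as an integrin ligand, at 590 and 626 CPM on NCD and 1685 and 1895 CPM on HFD. The marker called lower was Krt7, from 442 and 448 CPM on NCD to 231 and 250 CPM on HFD. Of 6 smooth muscle and pericyte markers 3 were higher (90.7 to 95.4 and 169.5 to 169.98 CPM). The part of these cells in the rises of Itgb4 and Itga7 was not tested. Itgb1 (chr8:128685654-128733200, plus strand), encoding the beta1 chain common to the collagen, laminin and fibronectin receptors, rose from 469.9 and 498 CPM to 648 and 644 CPM, a log2 change of 0.42 ± 0.04 (edgeR adjusted p = 0.00155).

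Of the 10 laminin chains 8 rose, and Lama3 and Lamc3 did not pass. The most abundant chain was Lamc1 (chr1:153218922-153332786, minus strand), which encodes gamma1, the gamma chain of most laminins. It rose from 191 and 195 CPM on NCD to 253 and 314 CPM on HFD, a log2 change of 0.55 ± 0.10 (edgeR adjusted p = 0.0122). HFD replicate 2 lay above HFD replicate 1, and both lay above the NCD libraries. Lama4, encoding alpha4 of endothelial laminin, rose from 99.6 and 99.3 CPM to 161 and 161 CPM, 1.62-fold. Lama5, encoding alpha5 of endothelial and epithelial laminins, rose from 83.9 and 77.0 CPM to 132 and 132 CPM, 1.64-fold. The ratio of Lama5 to Lama4 within a library was 0.842 and 0.775 in NCD and 0.818 and 0.819 in HFD, so the HFD values lay between those of NCD.

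The beta chains rose by unequal amounts. Lamb1, the general beta1 chain of laminin, rose from 126 and 121 CPM on NCD to 181 and 189 CPM on HFD, a log2 change of 0.58. Lamb2, the beta2 chain of mature vessel, kidney and synaptic laminins, rose from 30.2 and 29.0 CPM to 62.0 and 63.95 CPM, 2.13-fold. Lamb3, the beta3 chain of epithelial anchoring laminin, rose from 1.63 and 2.43 CPM to 7.19 and 6.53 CPM, 3.38-fold. Per kilobase, Lamb2 went from 27.6% ± 0.0227 of the laminin beta chains in NCD to 34.5% ± 0.00621 in HFD, and Lamb1 from 70.6% ± 0.508 to 62.1% ± 0.316.

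The other laminin chains were scarce. Lama2, the alpha2 chain of muscle and nerve, stood at 3.10 and 4.00 CPM on NCD and 6.20 and 6.13 CPM on HFD (edgeR adjusted p = 0.0319), a call lost with a replicate block (edgeR adjusted p = 0.0546) and when NCD replicate 1, HFD replicate 1 or HFD replicate 2 was left out (adjusted p by edgeR = 0.110, 0.0995 and 0.102). Lama1, the alpha1 chain of embryonic basement membranes, stood at 0.589 and 0.659 CPM on NCD and 1.32 and 2.70 CPM on HFD (edgeR adjusted p = 0.0382). Its call was lost with a replicate block (edgeR adjusted p = 0.0533), without the count filter (0.0549), with limma-voom (0.0712) and when NCD replicate 1, NCD replicate 2 or HFD replicate 2 was left out (adjusted p by edgeR = 0.114, 0.0918 and 0.209). Lama3, the alpha3 chain of epithelial anchoring laminin, stood at 6.26 and 6.27 CPM on NCD and 6.77 and 6.46 CPM on HFD (edgeR adjusted p = 0.739). Lamc3, encoding gamma3, stood under 1 CPM in every library, and its diets overlapped (edgeR adjusted p = 0.915).

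Markers of cells that build basement membranes moved in the same libraries. Of 8 endothelial markers 4 were higher and 3 lower, with sums of 2219 to 2279 CPM on NCD and 2420 to 2426 CPM on HFD. All 7 fibroblast and stellate cell markers were higher, with sums of 117.5 and 117.6 CPM on NCD and 1228 to 1262 CPM, as were all 7 acinar markers, with sums of 379 to 385 CPM and 2509 to 2996 CPM. Of 6 Schwann cell markers 2 were higher, with sums of 22.9 to 26.3 CPM and 23.9 to 26.8 CPM. Their part in the rise of the laminin chains was not tested.

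**Figure D3:**
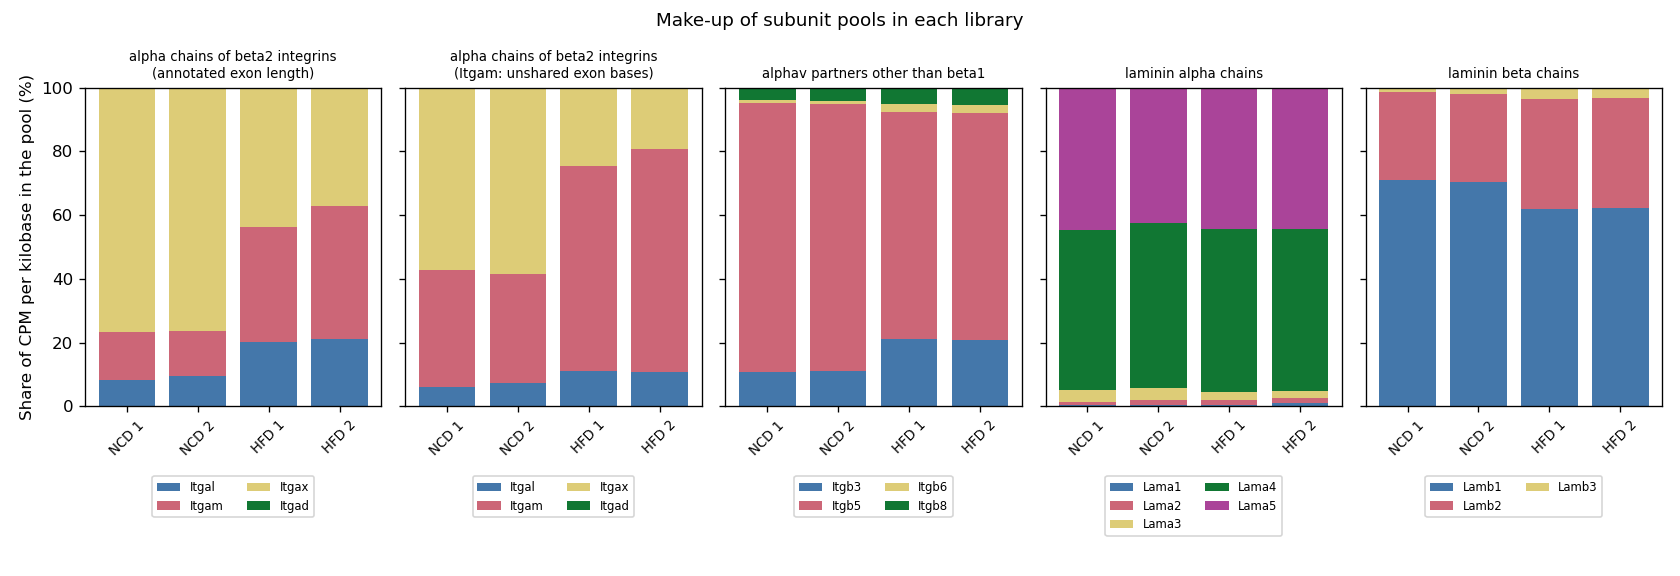
Share of each chain in its pool of partner chains, in percent of the CPM per kilobase of exon, for each library. The first 2 panels differ in the length given to Itgam. The share of Itgax is lower in HFD in both, which its fall beside the rises of Itgam and Itgal fixes at any length. Among the alphav partners Itgb3 takes a larger share in HFD, Lama4 and Lama5 have similar shares of the laminin alpha chains in both diets, and Lamb2 takes a larger share of the laminin beta chains.

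Basement membrane partners of laminin rose with it. Of 12 genes of collagen IV, nidogen, perlecan and related proteins 10 rose and 2, Col4a3 and Col4a4, did not pass, with a median log2 change of 0.87. Col4a6, named after its values were seen, is among the 10 that rose. It had 8 and 20 counts on NCD and 118 and 82 on HFD, and passed the count filter only through its HFD counts. Nid1, encoding the nidogen that bridges laminin and collagen IV, rose from 119 and 111 CPM to 279.5 and 263 CPM, a log2 change of 1.24 ± 0.06. Col4a2, a chain of the collagen IV network, rose from 665 and 643 CPM to 946 and 969 CPM, Col15a1 rose from 37.4 and 38.5 CPM to 117 and 116 CPM, and Col18a1, the source of endostatin, from 56.9 and 54.1 CPM to 103 and 111 CPM. Of 11 non-integrin laminin receptors and related genes 10 were tested, 5 rose and 5 did not pass, with a median log2 change of 0.34. Sdc1, encoding syndecan-1 of epithelium and plasma cells, rose from 10.6 and 13.4 CPM to 57.6 and 63.2 CPM. Rpsa, a ribosomal protein gene once named for laminin binding, rose from 524 and 540.4 CPM to 784 and 816 CPM, Sgce, encoding epsilon-sarcoglycan, from 11.6 and 10.2 CPM to 21.3 and 21.3 CPM, and Sdc4, the syndecan of focal adhesions, from 115 and 126 CPM to 162 and 165 CPM.

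Most ligands of integrins rose. Of 23 ligand genes 22 were tested: 16 rose, 1, the nephronectin gene Npnt named after its value was seen, fell, and 5 did not pass, with a median log2 change of 1.57. Fn1, encoding fibronectin, the ligand of alpha5beta1, rose from 32.8 and 29.5 CPM to 346 and 311 CPM, a log2 change of 3.40 ± 0.09 (edgeR adjusted p = 3.86e-05). Fbn1, encoding the RGD protein fibrillin-1, rose from 28.9 and 24.1 CPM to 186 and 169 CPM. Icam1, the ligand of beta2 integrins, rose from 25.6 and 26.6 CPM to 89.4 and 86.7 CPM, and Vcam1, the ligand of alpha4beta1, from 15.0 and 17.1 CPM to 68.6 and 69.5 CPM. The ligands of the beta7 receptors, chosen after their values were seen, differed from each other. Madcam1, the ligand of alpha4beta7, had 7 and 0 counts on NCD and 153 and 98 counts on HFD, or 0.109 and 0 CPM and 2.47 and 1.73 CPM. It is among the 16 that rose and entered the test through its HFD counts alone. Cdh1, encoding E-cadherin, stood at 436 and 451 CPM on NCD and 422 and 444 CPM on HFD (edgeR adjusted p = 0.623). The difference in size between ligands and receptors as groups was not tested. All 7 fibroblast and stellate cell markers were higher in the same libraries, from a sum of 117.5 and 117.6 CPM to 1228 and 1262 CPM, and their part in the rise of the matrix ligands was not tested.

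Genes of the machinery that activates integrins and ties them to actin were mixed. Of 28 genes 14 rose, 3 fell and 11 did not pass, with a median log2 change of 0.28. Tns1, encoding the adaptor tensin 1, rose from 128 and 120 CPM to 208 and 212 CPM, Vcl, encoding vinculin, from 93.8 and 97.2 CPM to 136 and 137 CPM, and Pxn, encoding paxillin, from 56.7 and 62.5 CPM to 96.1 and 99.6 CPM. Lims1, encoding PINCH1, which binds integrin-linked kinase, fell from 79.6 and 76.5 CPM to 39.9 and 36.7 CPM, a log2 change of -1.03 ± 0.07 (edgeR adjusted p = 0.000464). The other genes that fell, named after their values were seen, were the tensin gene Tns2, from 98.5 ± 3.78 to 84.8 ± 0.668 CPM, and the focal adhesion kinase gene Ptk2, from 101 ± 3.80 to 87.4 ± 1.72 CPM (edgeR adjusted p = 0.0369 and 0.0435). Only 1 gene of the list was lower with a replicate block, without the count filter, at a mean of at least 5 CPM, without NCD replicate 1 or without HFD replicate 2.

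**Figure D4:**
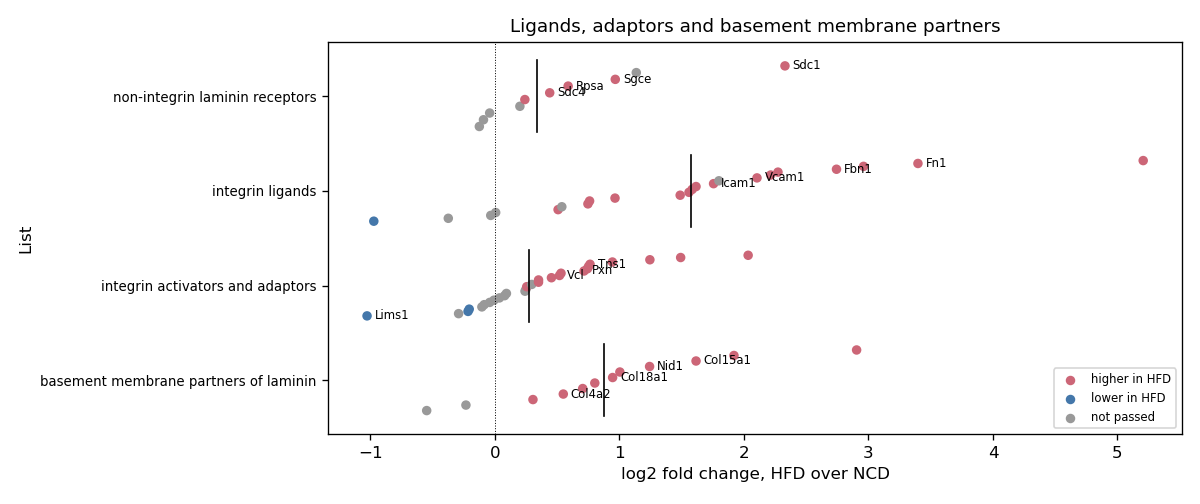
The log2 fold change of HFD over NCD for each tested gene of the 4 lists of ligands, adaptors, basement membrane partners and other laminin receptors. Red points rose, blue points fell and grey points did not pass. Black bars give the list medians, which are 1.57 for the ligands, 0.87 for the basement membrane partners, 0.34 for the other laminin receptors and 0.28 for the activators and adaptors. The 4 genes with the smallest p in each list are named.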

How the data were processed

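The authors deposited whole-number counts per Ensembl gene, 1 table per library. Per the submitters' processing notes, HISAT, featureCounts 1.5.0, DESeq 1.8.3 and build GRCm38 were used, without role or settings, and the kit was KAPA's stranded one per the labels' protocols. The sources used here do not give the strand setting or the handling of shared reads. Symbols, coordinates and exon lengths came from GENCODE M21 (GRCm38), and 55154 of 55421 identifiers had a symbol. Promoters came from RefSeq on GRCm38.p6.

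In R 4.3.3, genes passing filterByExpr (minimum count 10) were scaled by TMM and tested with the quasi-likelihood test of edgeR 4.0.16 without a replicate block, adjusted over all genes at 0.05. The fit was checked on simulated counts with known changes. CPM uses TMM-scaled sizes. Itgad, with 16 counts in all, was not tested. Members and lists were chosen with earlier results of these data known. Every member is named, and of each list the 4 genes with the smallest p. Marker sums leave out members. Some genes, among them Spp1, Vwf, Krt7 and Cspg4, stand in more than 1 list. Alternatives were DESeq2 1.42.0 (size factors, Wald test), limma-voom (limma 3.58.1), other filters, library sizes without genes over 1% of a library, counts divided by 4, a 2-fold minimum, a replicate block and leaving out each library. Same-numbered libraries did not deviate together (Pearson r = 0.00211 across 21563 genes, which are not independent replicates).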

Additional observations from a re-analysis of the deposited data

How the results depend on the processing

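The main limit is the number of libraries, 2 per diet, and where 1 was left out, the lone library was taken to have the spread of the other diet's pair. Of 653 values of single genes under alternatives, 607 kept direction and side of the threshold, 33 lost the call, 6 gained it and 7 changed sign. The 2-fold minimum is among these alternatives and reuses the main fit, so it can change no sign. Some of the lost calls came from that rule alone, among them those of Itgax, Itga4, Itgb2, Itga1, Itgb3 and Itgb5. The sign changes were those of Itga10 without HFD replicate 2 (log2 change 0.000496, and -0.54 without HFD replicate 1), Itga3 without the count filter (-0.00149), without NCD replicate 2 (-0.0323) and without HFD replicate 1 (-0.0057), with 0.0264 without NCD replicate 1, and Lamc3 with limma-voom (-0.10), the replicate block (-0.0505) and without HFD replicate 2 (-0.88, and 0.73 without HFD replicate 1), none of which had passed the test. Itga11 passed with DESeq2's Wald test, limma-voom and without NCD replicate 2 (adjusted p = 0.00194, 0.0457 and 0.0131), Itga8 with DESeq2 and with counts divided by 4 (0.0146 and 0.0465), and Itga2b with DESeq2 (0.0491). DESeq2 called 18 integrin chains higher, and limma-voom and edgeR on counts divided by 4 called 16 each.

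With a change of at least 2-fold by edgeR, 9 integrin chains were higher and 0 lower (2 at an unadjusted p under 0.05 and 2 by DESeq2 with no fold limit), and 3 laminin chains, 21 companion genes, 5 basement membrane partners, 3 activators and adaptors and 1 non-integrin laminin receptor were higher. The 2-fold rule left 1 activator, 0 ligands (1 at an unadjusted p under 0.05 and 1 by DESeq2) and 1 companion gene in all lower. With a mean of at least 5 CPM, 5 laminin chains were higher, since fewer were tested. Without the count filter, with that mean, and with the replicate block alike, 2 companion genes were lower, of them 1 activator. Leaving out each library gave 2 to 3 companion genes and 1 to 2 activators lower (2 and 1 without NCD replicate 1 and without HFD replicate 2), 14 to 15 integrin chains higher and 2 lower, and 6 to 7 laminin chains higher. The share of all genes at an unadjusted p under 0.05 was not counted, so counts by that rule stand here without a background. No laminin chain was lower by edgeR, at an unadjusted p under 0.05 (0 chains) or by DESeq2 (0 chains). The cause of these shifts was not tested. The replicate block gave 15 integrin and 6 laminin chains higher, losing Lama1 and Lama2. The replicate numbers share only a number, since the labels do not say that they mark pairs. The log2 change of the class sums ran from 0.22 for laminin-binding to 0.85 for collagen-binding integrins with TMM scaling and without it.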

Other observations

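Within a library, Itgax stood at 3.42 and 3.15 times the level of Adgre1, the macrophage gene for F4/80, in NCD and at 2.17 and 2.03 times in HFD. Relative to Itgb2, the chain it pairs with, it stood at 1.41 and 1.55 times in NCD and at 0.545 and 0.466 times in HFD. Itgb7 relative to Itgb2 stood at 0.0634 and 0.0611 in NCD and 0.316 and 0.255 in HFD. Itgb4 relative to Itga6, its only known alpha partner, stood at 0.0629 and 0.0655 in NCD and 0.230 and 0.227 in HFD. These are ratios of CPM, not corrected for length, and were chosen after the values were seen. In each of these pairs the libraries of the diets did not overlap, which adds no support, since the values were known when the pairs were chosen. For single genes that held for 67.7% of all genes tested. Among the other ratios taken, those of Lama5 to Lama4 and of Lamb1 to Lamc1 did overlap.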
